A study of Homo sapiens with 4 samples.

Results

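The regions described here are stretches of open chromatin that were called in Ishikawa endometrial cancer cells after estradiol and in neither the vehicle library nor the dexamethasone library. They were found by merging peaks of these 3 lists that overlapped by 1 bp or more, on chromosomes 1 to 22 and X, and keeping merged regions with estradiol peaks only. There were 514 such regions among 8975 merged regions, and each held a single estradiol peak. They made up 10.9% of the 4701 merged regions with an estradiol peak. The members were thus selected on the authors' calls in the 3 lists. Their strength and length in the estradiol list are given as a description and support nothing.

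The assay was ATAC-seq: a transposase inserts sequencing adapters into DNA that is not wrapped tightly, so that tags pile up over open sites. Ishikawa is an established human endometrial adenocarcinoma line. Cells kept in medium without phenol red and with charcoal-treated serum, which is low in steroids, received DMSO vehicle, estradiol at 10 nM, dexamethasone at 100 nM, or both hormones at those doses, for 1 hour. Each treatment had 1 library, which leaves no measure of replicate error; no p-value between treatments was computed, and every difference below describes these libraries.

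Estradiol is the main ligand of estrogen receptor alpha, a nuclear receptor that drives proliferation and the progesterone receptor in endometrial epithelium. The receptor binds DNA directly at palindromic estrogen response elements, or through other factors, and often at enhancers that forkhead and other pioneer factors have already opened. Dexamethasone activates the glucocorticoid receptor, a relative with its own response element that in many cells meets the same coactivators. The deposited regions are given on the hg19 build. Genes, start sites, response elements and cell type markers at these regions were not analysed here, since the reference tables used were on another build.

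The estradiol library held 20185339 tags after duplicate removal, the vehicle library 10694743, the dexamethasone library 14980230 and the combination library 8240912. Their modelled fragment lengths were 84, 104, 89 and 51 bp in the same order, and the lists held 4761, 1914, 8419 and 130 regions on chromosomes 1 to 22 and X. The estradiol library was thus the deepest, and the combination library stood apart by its short list, low depth and short fragments.

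Most of the estradiol-only regions were among the weaker calls of the estradiol list. Their median pileup, the number of extended tags over the summit, was 17 (range 11 to 44), beside 19 in estradiol peaks shared with dexamethasone and 24 in those shared with both other lists. Their median fold enrichment over local background was 8.71 (range 6.36 to 15.4), beside 9.20 and 10.2. The classes overlapped widely: the interquartile range of the estradiol-only folds ran from 7.98 to 9.67, and that of the peaks shared with dexamethasone from 8.31 to 10.2. The list was ordered by p-value and divided into 10 equal bins. Estradiol-only regions were 1.47% of the strongest bin (7 of 476) and 23.9% of the weakest (114 of 477). The share was higher in every bin than in the stronger bin beside it, and 396 of the 514 (77.0%) lay in the weaker 5 bins.

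**Figure D1:**
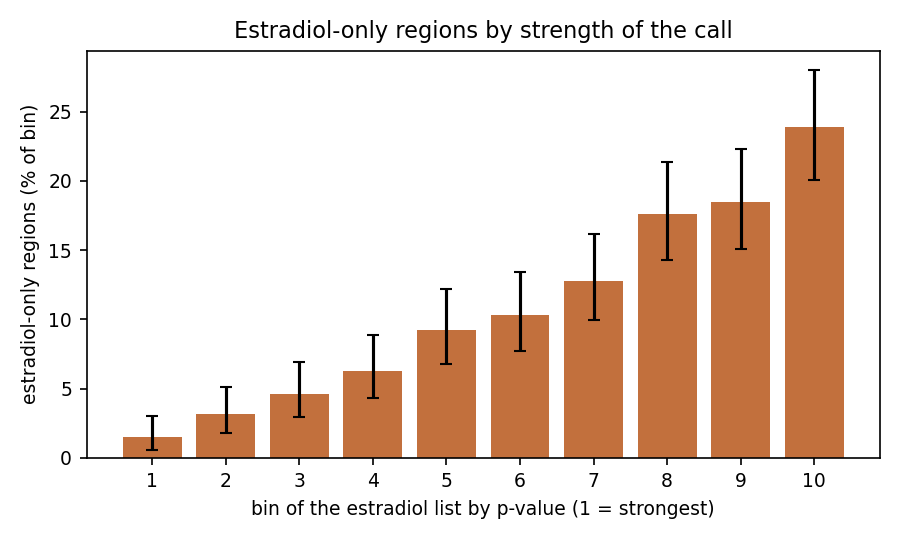
Share of estradiol peaks (y axis, %) that were called in neither the vehicle nor the dexamethasone list, by bin of the estradiol list ordered by p-value (x axis, 10 equal bins, 1 is the strongest); bars show the share and lines the 95% exact binomial interval, which covers counting error only. The share goes from 1.47% in the strongest bin to 23.9% in the weakest.

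The estradiol-only regions were also narrow. Their median length was 98 bp, beside 124 bp for estradiol peaks shared with dexamethasone and 190 bp for those shared with both lists. Of the 514, 116 (22.6%) were exactly 84 bp long, the shortest length in that list and equal to its fragment length; among the peaks shared with both lists 29 of 1681 (1.73%) were. The shortest region in the vehicle list was 104 bp, and 296 estradiol-only regions (57.6%) were shorter than that. Within the same bin of the list the estradiol-only regions were again the narrower ones, with medians of 92 and 215 bp in the strongest bin and 98 and 119 bp in the weakest. A narrower peak is less apt to overlap a peak of another list, so the rule itself favours narrow regions.

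The region with the highest fold enrichment lay at chr8:46852424-46852515, with 24 tags over a local background of 0.628 (15.4-fold). It was followed by chr10:69857039-69857156, with 23 tags (14.1-fold), and chr1:121355710-121355823, with 24 tags (13.2-fold). The next were chr19:56879481-56879606 with 23 tags (13.2-fold), chr10:42406721-42406804 with 23 tags (13.0-fold) and chr1:231942541-231942651 with 24 tags (12.6-fold). The remaining 4 of the 10 highest were chr9:66833147-66833230, chr16:47052215-47052315, chr6:168868857-168868965 and chr1:121478625-121478708, with 19 to 21 tags and folds of 12.3 to 12.5. These heights were not extreme for the list. The median height was 19 tags in estradiol peaks shared with dexamethasone and 24 in those shared with both other lists, where the highest reached 101. The combination list held 4 of these 10: those on chromosomes 8 and 9, and chr1:121355710-121355823 and chr1:121478625-121478708.

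The longest estradiol-only region was chr17:41400300-41400544 (245 bp, 23 tags, 8.66-fold). It was followed by chr2:63815789-63816017 (229 bp, 16 tags), chr7:47510360-47510573 (214 bp, 19 tags), chr8:98776651-98776861 (211 bp, 22 tags) and chr12:4120818-4121021 (204 bp, 18 tags). None of these 5 overlapped a combination region.

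At the lower end, the estradiol-only regions with the highest p-values were chr7:1032870-1033003 (14 tags, 6.64-fold, −log10 p of 11.1), chr8:19674701-19674823 (15 tags, 6.41-fold), chr20:30410580-30410682 (13 tags, 6.89-fold), chr6:30585169-30585293 (14 tags, 6.66-fold) and chr20:32581410-32581493 (14 tags, 6.69-fold). Just outside the group were estradiol regions that a weak dexamethasone peak removed from it. At chr12:69402384-69402511 estradiol gave 24 tags (10.0-fold), and the dexamethasone peak that overlapped it had 14 tags (6.73-fold, −log10 p of 11.3). At chr1:61543653-61543736 the estradiol peak had 20 tags and the overlapping dexamethasone peak 17 (6.05-fold, −log10 p of 11.3). At chr9:129986682-129986862 the heights were 15 and 13 tags, at chr2:20784458-20784541 19 and 16, and at chr5:173751062-173751186 19 and 13. Heights are in each library's own tags and are not scaled to depth.

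A missing call in another list means only that the site did not pass the cutoff there. At the genome-wide background, the lowest pileup that could pass the authors' cutoff was 9 tags in vehicle, 10 in dexamethasone and 10 in estradiol, or 0.842, 0.668 and 0.495 tags per 1000000. Each estradiol-only height was scaled by tags times fragment length to the other libraries and set against the lowest callable pileup at its own scaled background. In vehicle, 206 of the 514 (40.1%) fell under that floor. With the height scaled by tags alone and the floor left unchanged, the number was 448 (87.2%). In dexamethasone 64 (12.5%) fell under it, or 131 (25.5%) with the height scaled by tags alone. The counts by tags alone thus set height and background on unlike scales. By tags times fragment length, the scaled height was at or over the floor of both libraries for 308 regions (59.9%). Of these, 139 (27.0% of all) were also at least as long as both fragment lengths. The like numbers by tags alone were not computed. The shortest region in each list equalled that library's own fragment length. A shorter estradiol region therefore does not bar a call in another library. The dexamethasone library, with fewer tags than the estradiol library, had the longer list. A scaled height under the floor does not settle whether a site would be called, as the combination calls below show, and the part of depth in the missing calls was not tested.

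The combination library was not used to choose the regions. Of the 514 estradiol-only regions, 10 (1.95%, 95% interval 0.937 to 3.55) overlapped a combination region, where 1.16% of all 8975 merged regions did. The share was 0.435% (11 of 2526, 0.218 to 0.778) for regions called with dexamethasone and estradiol, 4.57% (75 of 1640, 3.61 to 5.70) for regions in all 3 lists and 0.0743% (3 of 4038, 0.0153 to 0.217) for dexamethasone-only regions. The estradiol-only share was therefore close to the background of all merged regions, above both classes called with dexamethasone but not vehicle, and below the regions in all 3 lists. These intervals cover counting error only, and regions of 1 library are not replicates.

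All 10 were strong calls of the estradiol list. At a −log10 p of 20 or more, 10 of 61 estradiol-only regions overlapped a combination region (16.4%, 8.15 to 28.1). The shares were 1.76% (11 of 624, 0.883 to 3.13) for regions shared with dexamethasone and 7.25% (74 of 1020, 5.74 to 9.02) in all 3 lists. The estradiol-only interval overlapped that of regions in all 3 lists. The share over all merged regions of that strength was not computed, so the 16.4% is not set against a background and is no trait of the group. All 10 lay near long uncalled stretches, described below. At a −log10 p below 15, 0 of 197 estradiol-only regions overlapped a combination region, which allows a share of up to 1.52%. From 15 to 20 it was 0 of 256, which allows up to 1.17%. For all 10, the height scaled to vehicle and to dexamethasone was at or over the floor of those libraries. Scaled to the combination library by tags times fragment length, all 514 heights were under its floor, those 10 among them. With the height scaled by tags alone and the floor left unchanged, 423 (82.3%) were, and none of the 10.

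The 10 regions also lay in particular places. Merged regions of the 3 lists left 102 stretches of at least 3 Mb without any call, which summed to 550.3 Mb, and all 10 were within 500 kb of such a stretch. In all, 36 of the 514 estradiol-only regions were (7.00%, 4.95 to 9.56), where 6.33% of all merged regions were, so position beside long uncalled stretches was not more frequent among the estradiol-only regions as a whole. Among the 36 near a stretch, 10 were called in the combination library (27.8%, 14.2 to 45.2), and among the other 478 none was, which allows a share of up to 0.628%. Several of the 10 lay close together, 4 of them in 1 window on chromosome 10. The intervals given for these 10, here and above, treat regions as independent and are likely too narrow. Over all merged regions the shares were 8.63% near a stretch (49 of 568) and 0.654% away from one (55 of 8407). Regions in all 3 lists had a like share near a stretch, 25.2% (29 of 115, 17.6 to 34.2), and 3.02% away from one. For regions shared with dexamethasone the shares were 4.05% (6 of 148) and 0.210%. A higher share near the stretches was thus not particular to the estradiol-only regions. Whether these stretches are gaps in the assembly was not tested. This way of locating the regions was chosen after their positions had been seen.

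**Figure D2:**
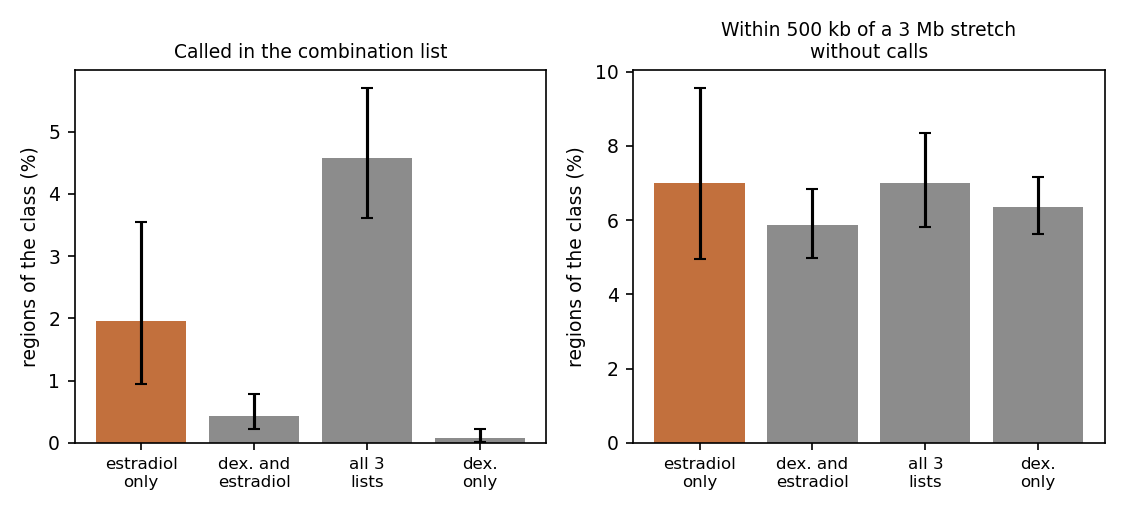
Share of merged regions of each class (y axis, %) that overlapped a combination region (left) or lay within 500 kb of a stretch of at least 3 Mb without calls (right); bars are shares and lines 95% exact binomial intervals, and dex. stands for dexamethasone. On the left the estradiol-only share is 1.95%, between 0.435% and 4.57%; on the right it is 7.00%, and its interval overlaps those of the other 3 classes.

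On chromosome 8 the regions at both edges of the uncalled stretch from 43092945 to 46852424 were estradiol-only, and both had a combination call. Stretches were drawn between merged regions, so these regions themselves set its edges. At chr8:43092860-43092945 estradiol gave 22 tags (11.6-fold) and the combination 21 tags (15.6-fold). At chr8:46852424-46852515 the values were 24 tags (15.4-fold) and 19 tags (17.3-fold). Neither site had a vehicle or dexamethasone call. The nearest regions of the dexamethasone list were 97337 bp and 1413322 bp away, the more distant one also called with estradiol.

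On chromosome 1, chr1:121355710-121355823 had 24 tags with estradiol and 17 with the combination (13.2-fold and 12.8-fold), and chr1:121478625-121478708 had 19 and 15 tags (12.3-fold and 13.5-fold). The second lay 5713 bp from a region that all 4 libraries called (1008 bp long with estradiol), with 93 tags in vehicle, 95 in dexamethasone and 101 in estradiol, and that bordered an uncalled stretch of 23.0 Mb. On chromosome 9, chr9:66833147-66833230 stood by itself, 4486802 bp from the nearest dexamethasone region, with 21 tags in estradiol (12.5-fold) and 17 in the combination (14.0-fold). At these 5 sites on chromosomes 1, 8 and 9 the local background was low, from 0.628 to 0.991 tags in the estradiol library.

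The densest group was on chromosome 10, where 7 estradiol-only regions lay between 42364715 and 42596974, out of 10 merged regions in that 1 Mb window. Next to an uncalled stretch of 4.06 Mb, chr10:42364715-42364804 had 31 tags with estradiol (7.97-fold) and 27 with the combination (13.7-fold). At chr10:42392695-42392781 the heights were 43 and 27 tags, and at chr10:42396121-42396204 they were 44 and 31. At chr10:42596889-42596974 they were 26 and 17. The other 3 regions of the group, chr10:42400385-42400489 (34 tags), chr10:42406721-42406804 (23 tags) and chr10:42529376-42529462 (21 tags), overlapped no combination region. Between them lay a region called in every library, with 64 tags in vehicle, 71 in dexamethasone, 77 in estradiol and 53 in the combination, and a region shared by dexamethasone (26 tags) and estradiol (33 tags).

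Most of this group had a higher local background than the other estradiol-only regions. Among the 514, 6 (1.17%) had a local background over 3 tags, of which 4 were in this group and 2 lay side by side on chromosome 18. The combination list held 4 of these 6. The like shares among other estradiol peaks were not computed, so the 4 of 6 is not shown to be particular to the estradiol-only regions. Of shared estradiol peaks in these places, chr10:42385133-42385272 (background 5.38) and chr18:18520253-18520341 (4.19) overlapped a combination region. The shared peak at chr10:42398605-42398772 (3.69) did not. Peaks shared with dexamethasone and those in all 3 lists each reached a local background of 11.9 tags. On chromosome 18, chr18:18518927-18519027 had 39 tags with estradiol (7.29-fold) and 34 with the combination (10.9-fold), and chr18:18518094-18518177, 750 bp away, had 44 tags (8.03-fold) and no combination call. The nearest region of the dexamethasone list lay 1221 bp from chr18:18518927-18519027, at chr18:18520248-18520340. It was also called with estradiol and with the combination, and had 41 tags in dexamethasone, 50 in estradiol and 38 in the combination. Heights in these places were the highest among the estradiol-only regions (31 to 44 tags), while the median fold enrichment of the 6 was 8.01, below the 8.71 of all 514.

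**Figure D3:**
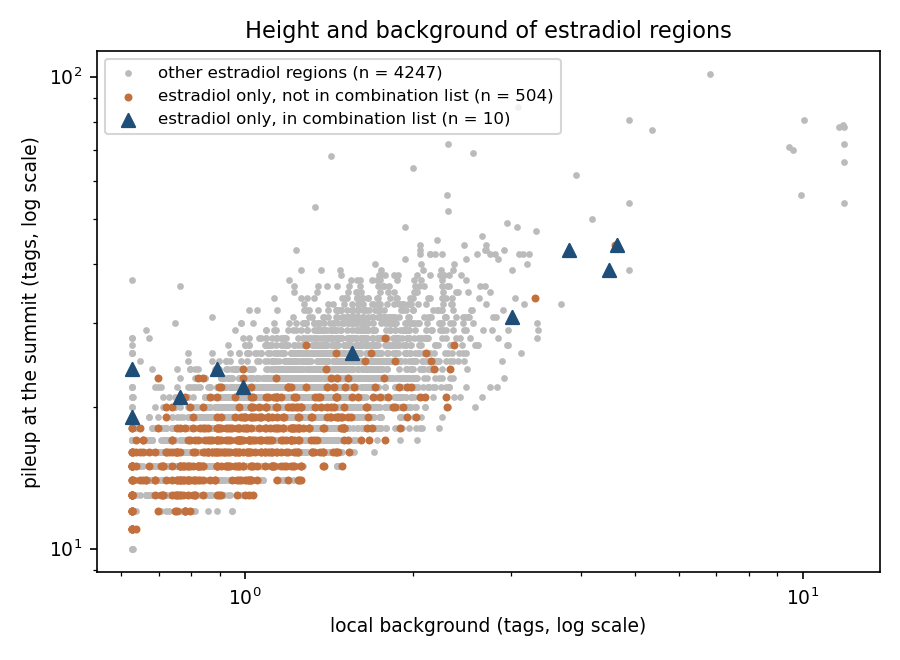
Pileup at the summit (y axis, tags) against local background (x axis, tags), both on log scales, for each estradiol peak on chromosomes 1 to 22 and X; grey points are peaks shared with another list, orange points estradiol-only regions, and blue triangles the 10 estradiol-only regions called in the combination library. The orange points lie within the grey cloud, mostly at its lower heights (median 17 tags), and 4 triangles stand apart at a background over 3 tags.

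Away from these places the estradiol-only regions were scattered. They fell into 427 windows of 1 Mb, of which 358 held 1 estradiol-only region, 58 held 2, 9 held 3, and only the windows at chromosome 10 from 42 Mb and chromosome 17 from 41 Mb held more. Chained within 50 kb of each other, 481 stood alone, 14 groups were pairs, and the group of 5 on chromosome 10 was the only larger one. Another estradiol-only region lay within 10 kb of 18 of them (3.50%, 2.09 to 5.48).

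The window on chromosome 17 held 6 estradiol-only regions between 41277497 and 41978096, with 11 to 23 tags and none called in the combination library. Its densest part spanned under 1 kb, where the longest estradiol-only region, chr17:41400300-41400544 (23 tags), and chr17:41400943-41401110 (17 tags, 6.47-fold) flanked a region called with vehicle (17 tags, 7.39-fold) and estradiol (17 tags, 6.47-fold). Dexamethasone had no call there. In the same window, chr17:41608268-41608385 (18 tags), lay 42 bp from a dexamethasone-only region with 13 tags.

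Spacing to other open regions was close to that of the other classes. The median distance from an estradiol-only region to the nearest merged region of any class was 48752 bp (95% interval of the median 41949 to 54355), beside 53706 bp (50180 to 57091) for regions shared with dexamethasone and 54273 bp (49250 to 58295) for those in all 3 lists. Another merged region lay within 10 kb of 97 of the 514 (18.9%, 15.6 to 22.5), where 17.4% of all merged regions had such a neighbour. To the nearest dexamethasone or vehicle region alone the median distance was 50380 bp (45146 to 58295), with a range from 1 to 4486802 bp. Over all merged regions the median distance to the nearest other merged region was 54766 bp (52930 to 56918). For dexamethasone-only regions it was 57809 bp (54279 to 60914). Both of these medians lay above the estradiol-only interval, though the intervals overlapped. The distance to dexamethasone or vehicle regions alone was not set beside other classes.

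A small number lay directly beside regions that other libraries called. A dexamethasone or vehicle region lay within 1 kb of 48 estradiol-only regions (9.34%, 6.97 to 12.2) and within 100 bp of 15 (2.92%, 1.64 to 4.77). Counting neighbours of any class, 56 (10.9%, 8.34 to 13.9) had a merged region within 1 kb, where 9.13% of all merged regions had, so adjacency was near the background. The neighbour within 1 kb belonged to a dexamethasone-only region in 32 of the 48 cases (that class made up 4038 of the 8461 other merged regions), to a region shared by dexamethasone and estradiol in 6, to a region in all 3 lists in 8 and to a region shared by estradiol and vehicle in 2. At chr4:88343984-88344151 (14 tags) the estradiol-only region began 1 bp after a dexamethasone-only region with 16 tags ended, so the peaks of the 2 lists adjoined. Without the 48, 466 regions remained.

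**Figure D4:**
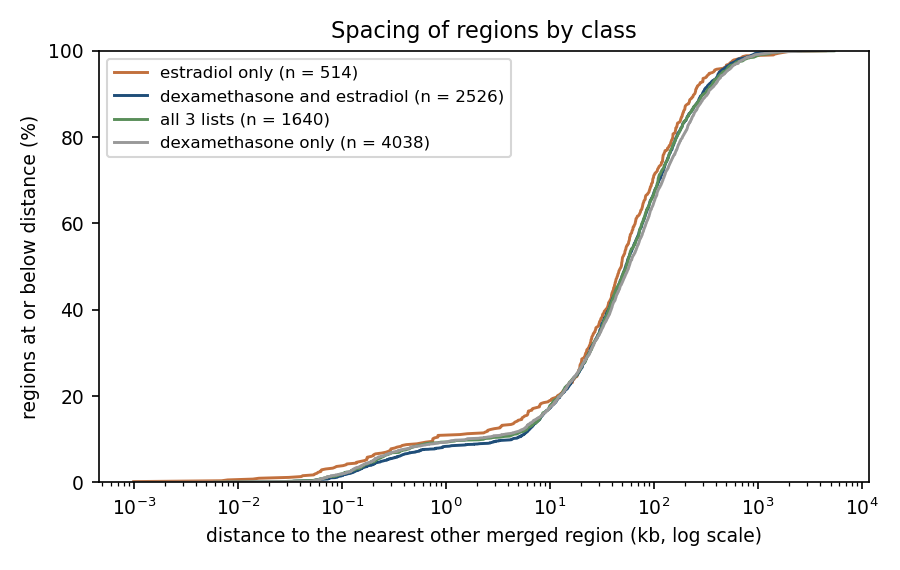
Share of regions (y axis, %) whose nearest other merged region lies at or below a given distance (x axis, kb, log scale), for 4 classes of merged regions. The 4 curves run close together, and the medians are 48752 bp for estradiol-only regions, 53706 bp for regions called with dexamethasone and estradiol, 54273 bp for regions in all 3 lists and 57809 bp for dexamethasone-only regions.

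Over chromosomes, estradiol-only regions made up 5.73% of all merged regions, from 3.78% on chromosome 5 (20 of 529, 2.32 to 5.78) to 11.0% on chromosome 18 (19 of 173, 6.74 to 16.6). Chromosome 19 followed with 32 of 377 (8.49%, 5.88 to 11.8), after chromosome 21 with 6 of 63 (9.52%, 3.58 to 19.6). On this denominator, chromosomes 18 and 19 were the only ones of 23 whose interval lay wholly on 1 side of the share over all chromosomes, and with so many intervals some miss that share by counting error alone. Counted against regions with an estradiol peak, the shares were 20.9% on chromosome 18 (13.1 to 30.7) and 15.8% on chromosome 19 (11.0 to 21.5), beside 10.9% over all, and on chromosome 5 the share was lower, 6.83% (4.22 to 10.3). Chromosome 1 held the most estradiol-only regions, 57, or 6.31% of its merged regions.

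**Figure D5:**
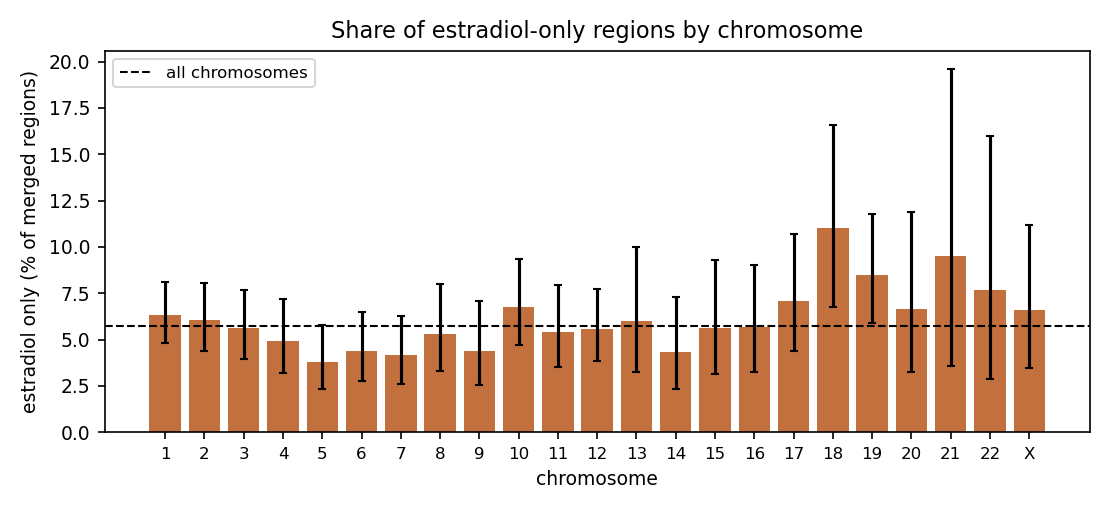
Share of merged regions that are estradiol-only (y axis, %) on each chromosome (x axis); bars are shares, thin lines 95% exact binomial intervals, and the dashed line the share over all chromosomes, 5.73%. Chromosome 18 has the highest share, 11.0%, and chromosome 5 the lowest, 3.78%.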

How the data were processed

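ATAC-seq regions from 4 Ishikawa libraries were used. The authors ran MACS 2.1.0.20140616 on each library alone, per the file headers, without a control, at a p cutoff of 1e-10, with 1 tag kept per position and a local background window of 10000 bp; Bowtie 1.1.2 and hg19 are named in the submitters' processing notes. The deposited pileup signal counts extended tags over the summit, unscaled. The fold enrichment deposited by the authors is a ratio of that height to local background, with 1 added to both. P-values and q-values were deposited as −log10. Tags were extended and not shifted to cut sites, per the file headers.

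Local background was recovered from pileup and fold, and the Poisson tail of the pileup gave each deposited −log10 p within 0.01. Lists were merged as in the report, and overlap functions were checked on simulated intervals. Shares carry 95% Clopper-Pearson intervals, and for a count of 0 the limit printed is 3 counts of the total; both cover counting error only. Named regions are the 10 highest folds, the 5 lowest −log10 p, the 5 longest, those called in the combination library, and the 5 just outside; others named in dense windows or beside other regions were chosen after their values were seen. Regions with an estrogen response element or near estrogen genes were also to be named, but this needs a genome of the files' build, which was not used here. The rule, the region classes and the alternatives were chosen with earlier results of these data known. Chromosomes Y and M were left out. Python 3.11.15, numpy 2.4.6, pandas 2.3.3, scipy 1.17.1 and matplotlib 3.10.9 were used.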

Additional observations from a re-analysis of the deposited data

How the results depend on the processing

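The number of estradiol-only regions stayed within 1.5 times of 514 under all 8 alternatives tried (393 to 575). A like number does not mean the same regions. When overlaps had to cover 50% of the shorter region, the share of estradiol regions was 12.1%, the median distance to a dexamethasone or vehicle region 43068 bp and the number with a neighbour within 10 kb 158. With regions extended by 500 bp, the distance was 58462 bp and the neighbours 42. With a −log10 q of at least 10 in the estradiol list alone, the share was 9.38%. With lists of equal length (1914 regions), the share was 26.1%, the distance 183478 bp and the neighbours 40. Without estradiol regions that had another within 10 kb, 6 were called in the combination library and 44 had a neighbour. Leaving out those within 500 kb of a long uncalled stretch was an alternative added after seeing the data. With it, 0 were called in the combination library, as its construction requires. With stretches of at least 5 Mb in place of 3 Mb, 4 of the 10 lay near one, as did 12 of all 514 (2.33%). With the 4 other settings 8 to 10 did, and 22 to 66 of the 514 (4.28% to 12.8%). The like shares over all merged regions were not computed for these settings. Response elements and start sites were not run, for want of a genome of the files' build. No paired analysis was possible because each treatment had 1 library, and for the same reason no library could be left out.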
